A study of Mus musculus with 2 samples.

Results

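The genes described are 10 members of the Notch pathway: the receptors Notch1, Notch2, Notch3 and Notch4, the ligands Jag1, Jag2 and Dll4, and the target genes Hey1, Hey2 and Heyl. They were chosen by symbol, as genes of known role, and all 10 were found among the 55536 genes of the deposited tables. The tables hold total RNA sequencing of 2 male hearts of strain B6CASTF1/J, an F1 hybrid, taken at 25 days of age, with 1 library from 300 ng of RNA per heart. No treatment, mutation, transgene or second group is labelled, so the hearts are replicates 1 and 2 of a single untreated group. The labels give the hearts different animal numbers but 1 shared donor identifier, so the spread between them may be smaller or larger than that between unrelated animals. An exact sign-flip test over 2 hearts cannot give a two-sided p below 0.5, so levels and ratios are described with their spread and no p is given.

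Notch receptors are membrane proteins that are cut after binding a ligand of the Jagged or Delta-like families on a neighbouring cell. The released intracellular domain enters the nucleus, joins the DNA-binding protein RBPJ and switches on genes such as the Hes and Hey repressors. In the heart the pathway is known for its part in the endocardium, in valve formation, in trabeculation of the ventricle, and in the arteries and their smooth muscle coat.

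Replicate 1 held 38253821 and replicate 2 held 40655101 estimated counts over genes. The 5 heart muscle markers were high in TPM, a level corrected for transcript length and library size. They ran from Ryr2, at 353.4 TPM in replicate 1 and 335.0 TPM in replicate 2, to Myh6, at 8807 and 8307 TPM. Of 4 skeletal muscle markers, Myog was at 0 counts in each heart, Actn3 was at 0.18 TPM in replicate 1 and 0.19 TPM in replicate 2, Tnni2 at 1.21 and 1.57 TPM, and Mylpf at 1.45 and 1.04 TPM. Of 4 T cell markers, 0 reached 1 TPM in both hearts. All 8 endothelial markers reached 1 TPM in both hearts, with a median of 26.8 TPM, as did all 5 smooth muscle markers, with a median of 19.7 TPM. The hearts differed in fat and blood transcripts: the 3 adipocyte markers summed to 213.5 TPM in replicate 1 and 29.96 TPM in replicate 2, and the 4 globins to 46360 TPM in replicate 1 and 23310 TPM in replicate 2.

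RBPJ recognises a short core, TGGGAA, which a script searched for on both strands (TTCCCA on the other) in RefSeq promoter windows of assembly GRCm38.p6. Each window runs from 250 bases before to 50 bases after a gene's start, and 8 of the 10 members matched the table by symbol. Hey1 and Heyl had no window there and were not searched, so Hey2 was the only target gene among the 8. Hey2 was also the only one of these 8 whose window held the core. It held it at 2 places, at position -207 on the strand opposite to the gene and at position -3 on the gene's strand, counted from the start site. Both places carry the longer form GTGGGAA, of which the core is a part. The core occurs in 25.6% of all 32817 windows of this length, and the longer form in 6.39%. The Hey2 window, shown because it alone holds the core, lies at chr10:30842734-30843033 on the minus strand and is 72.0% G and C, against a median of 52.7% over all windows. A match of letters is not a measured binding site. The sequence is written 5′ to 3′ in the direction of the gene, with the cores in capitals.
Hey2 promoter window: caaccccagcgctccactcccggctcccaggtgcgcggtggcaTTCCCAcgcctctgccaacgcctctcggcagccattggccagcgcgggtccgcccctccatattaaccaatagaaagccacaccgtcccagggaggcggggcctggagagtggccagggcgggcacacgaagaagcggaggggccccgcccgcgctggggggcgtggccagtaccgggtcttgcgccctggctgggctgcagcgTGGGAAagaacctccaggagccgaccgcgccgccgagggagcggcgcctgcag

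Short transcript models of Notch4 take part of that gene's level, as described further on, and the stretches that set a pair of them apart from its coding transcript are shown here. The first is a retained-intron model of 352 bases (ENSMUST00000152714.1) at chr17:34565136-34565577. The second is a processed transcript of 619 bases (ENSMUST00000156724.1) at chr17:34587041-34587818. Both lie on the plus strand of GRCm38 in GENCODE M21. Of their bases, 165 in the retained-intron model and 76 in the processed transcript lie in introns of the coding transcript. Each stretch of 152 bases crosses the border, with intron bases of the coding transcript in capitals and its exon bases in lower case.
Notch4 retained-intron model, bases 90 to 241: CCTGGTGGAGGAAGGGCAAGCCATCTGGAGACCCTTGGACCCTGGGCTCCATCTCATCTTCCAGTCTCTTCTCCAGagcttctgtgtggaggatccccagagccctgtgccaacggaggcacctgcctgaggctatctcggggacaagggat
Notch4 processed transcript, bases 1 to 152: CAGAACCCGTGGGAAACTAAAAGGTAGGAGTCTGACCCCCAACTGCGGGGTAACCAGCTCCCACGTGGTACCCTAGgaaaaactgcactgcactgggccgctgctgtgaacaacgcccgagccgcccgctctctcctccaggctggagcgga

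All 10 members reached 1 TPM in both hearts, a level reached by 49.5% of protein-coding genes and by 21.3% of all genes. The members were chosen with earlier results of these data known, so this comparison is a description and no test. Their means ran from 2.10 to 13.0 TPM and lay above those of 56.0% to 82.5% of protein-coding genes. The counts behind them ran from 165 to 2893 per library and were whole numbers, within 0.005, for 9 of 10 members, Notch2 being the exception. These are levels in whole tissue, where fewer cells of a type and less RNA per cell cannot be told apart.

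Summed TPM was highest for the receptors. They came to 39.91 TPM in replicate 1 and 37.81 TPM in replicate 2, the ligands to 17.11 and 17.73 TPM, and the Hey genes to 11.61 and 12.93 TPM. The log2 ratio of the receptor sum over the ligand sum was 1.16 ± 0.09 and that over the Hey sum 1.66 ± 0.16 (SD, n = 2), both above 0 in each heart.

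**Figure D1:**
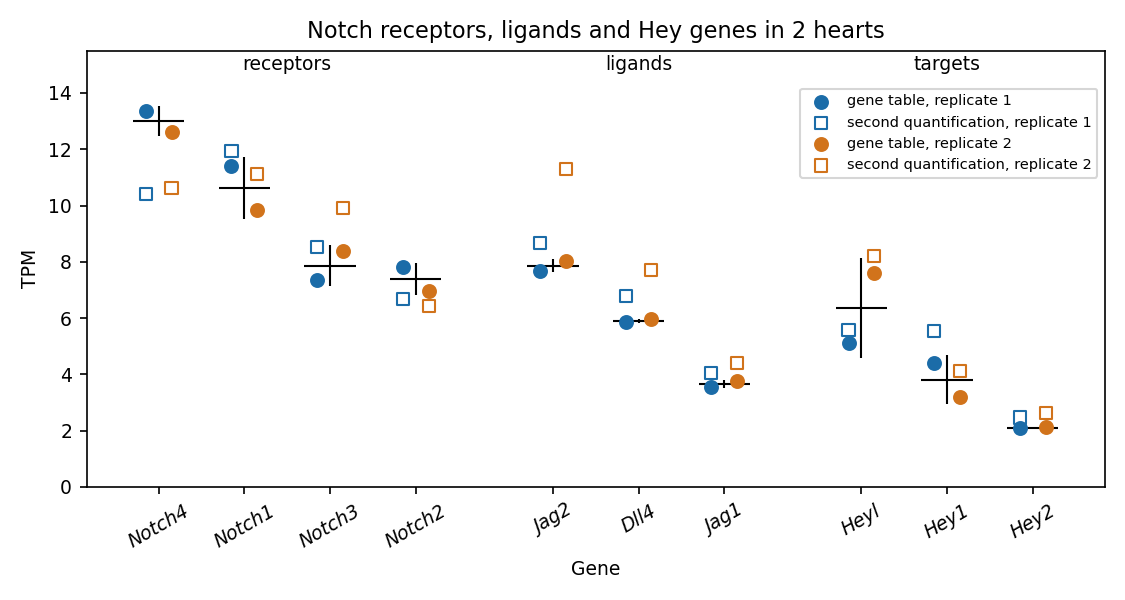
TPM of each member (y axis, linear) in replicate 1 (blue) and replicate 2 (orange), from the gene table (filled circles, with mean and SD of the 2 hearts in black) and from a second deposited quantification (open squares). Notch4 leads the receptors at 13.0 TPM in the gene table but lies below Notch1 in the second quantification, and Heyl and Hey1 are the members whose hearts lie farthest apart for their level.

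Notch4, a receptor found mainly in endothelial cells, had 13.37 TPM in replicate 1 and 12.62 TPM in replicate 2 in the gene table. Notch1, the receptor of endocardium and endothelium that valve formation needs, had 11.39 TPM in replicate 1 and 9.84 TPM in replicate 2. Notch3, the receptor of arterial smooth muscle and pericytes, had 7.35 TPM in replicate 1 and 8.37 TPM in replicate 2. The first 2 of these were higher in replicate 1 and the third was higher in replicate 2. Notch2, a broadly expressed receptor, had 7.80 TPM in replicate 1 and 6.98 TPM in replicate 2.

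The share of the receptor sum was nearly the same in both hearts for Notch4, at 33.5% in replicate 1 and 33.4% in replicate 2. The share of Notch3 varied more, at 18.4% in replicate 1 and 22.1% in replicate 2. Neighbours in the order of levels were called different beyond their spread where the log2 ratio of TPM + 0.1 lay on 1 side of 0 in both hearts and its mean exceeded its SD. The order itself came from these 2 hearts, so the rule describes them and is no test. With 2 hearts, a mean above its SD already puts both on 1 side of 0, so the first condition adds nothing. Pairs without a true difference can also meet the rule, at a rate that was not computed. Notch4 over Notch1 was 0.29 ± 0.09 and Notch1 over Notch3 was 0.43 ± 0.28, both beyond the spread. Notch3 over Notch2 was 0.09 ± 0.24, with the order of this pair turned round between the hearts.

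In GENCODE M21 (GRCm38), the genes lie at chr17:34564268-34588503 for Notch4, chr2:26457903-26516663 for Notch1, chr17:32120820-32166852 for Notch3 and chr3:98013527-98150361 for Notch2. Other annotated genes overlap some of them. The antisense gene Gm17276 overlaps 21024 bases of Notch3 and had 17 counts in replicate 1 and 29 in replicate 2, against 1903 and 2217 for Notch3. Gm42819 lies inside Notch2 on the same strand and had 47 counts in replicate 1 and 59 in replicate 2. Gm42820, also inside Notch2 on the same strand, had 20.06 counts in replicate 1 and 22.22 in replicate 2. Like those of Notch2, its counts were not whole numbers, and sharing of reads between these genes was not tested. The labels describe the spike-ins as those for stranded libraries, and how the counting used strand is not given in the sources used here.

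Jag2, a Jagged-family ligand, had 7.69 TPM in replicate 1 and 8.02 TPM in replicate 2. Dll4, the Delta-like ligand of arterial endothelium, had 5.86 TPM in replicate 1 and 5.96 TPM in replicate 2. Jag1, the ligand whose human gene is mutated in Alagille syndrome, had 3.56 TPM in replicate 1 and 3.75 TPM in replicate 2. Each ligand was slightly higher in replicate 2 on the TPM scale, and no ligand's hearts differed by as much as neighbouring ligands did. The order was the same in both hearts, with Jag2 over Dll4 at 0.40 ± 0.03 and Dll4 over Jag1 at 0.68 ± 0.03 (log2, mean ± SD, n = 2), both beyond the spread. As shares of the ligand sum, Jag2 took 44.9% in replicate 1 and 45.2% in replicate 2, Dll4 34.2% and 33.6%, and Jag1 20.8% and 21.2%. Jag2 lies at chr12:112907819-112929776, Dll4 at chr2:119325784-119335962 and Jag1 at chr2:137081456-137116644.

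Heyl, a Hey-family repressor known in vascular smooth muscle, had 5.11 TPM in replicate 1 and 7.61 TPM in replicate 2. Hey1, a repressor of endocardial, arterial and atrial cells, had 4.42 TPM in replicate 1 and 3.20 TPM in replicate 2. Hey2, the family member of ventricular muscle and arteries, had 2.08 TPM in replicate 1 and 2.12 TPM in replicate 2. Hey2 thus was the lowest of the 10 members and nearly equal in the hearts, while Heyl was lower in replicate 1 and Hey1 higher there. Heyl made up 44.0% of the Hey sum in replicate 1 and 58.9% in replicate 2, and Hey1 38.1% in replicate 1 and 24.7% in replicate 2. Part of this shift lay on shorter transcript models, and levels of the longest coding transcript alone are given further on. The log2 ratio of Heyl over Hey1 was 0.20 in replicate 1 and 1.22 in replicate 2, so its mean of 0.71 did not exceed its SD of 0.72. Hey1 over Hey2 was 0.81 ± 0.34, beyond the spread. Over all 3 roles, 5 of the 7 neighbouring pairs met that rule, which is a description and no test. Heyl lies at chr4:123233556-123249875, Hey1 at chr3:8663359-8667256 and Hey2 at chr10:30832359-30842801.

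The annotation gives the members 51 transcripts, 13 of them coding and 38 without a coding class (retained introns, processed transcripts and targets of nonsense-mediated decay). The longest transcript of each gene, which is coding and is called the main coding transcript here, was the leading transcript of all 10 members in both hearts and both quantifications. All 38 non-coding models are shorter, with a median of 632.5 bases, against 2423 to 10500 bases for the main coding transcripts. Of the 38 models, 35 include intron bases of the main coding transcript. Coding transcripts held 91.5% to 100% of a member's estimated counts (mean of the hearts, median 95.9%) but 59.1% to 100% of its TPM (median 85.4%). Because TPM divides by length, a few counts on a short model can take a large part of a gene's TPM.

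In the first quantification Notch4 had the lowest coding share of TPM, at 60.1% in replicate 1 and 58.1% in replicate 2, while its coding share of counts was 94.8% in replicate 1 and 94.6% in replicate 2. The processed transcript of Notch4 shown above had 43.87 counts and 2.58 TPM in replicate 1 and 38.26 counts and 2.09 TPM in replicate 2. The retained-intron model had 12.67 counts and 1.53 TPM in replicate 1 and 18.66 counts and 2.10 TPM in replicate 2. These short models were singled out after their values were seen. The processed transcript made up 17.9 ± 1.93% of Notch4 TPM and the retained-intron model 14.0 ± 3.67% (mean ± SD, n = 2). In the second quantification the processed transcript averaged 2.05% and the retained-intron model was listed at 0 in both hearts.

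Notch2 was next in the first quantification, with a coding share of TPM of 68.2% in replicate 1 and 62.0% in replicate 2. The rest was a retained-intron model of 1896 bases (ENSMUST00000198324.1), with 145.53 counts and 2.48 TPM in replicate 1 and 167.53 counts and 2.65 TPM in replicate 2. Its share averaged 34.9 ± 4.43% in the first and 13.4 ± 7.27% in the second quantification. Jag2 had a coding share of 76.7% in replicate 1 and 73.0% in replicate 2. Its processed transcript of 750 bases (ENSMUST00000221454.1) had 9.03 counts and 0.42 TPM in replicate 1, against 42.13 counts and 1.84 TPM in replicate 2. That model took 5.46% and 22.9% of Jag2 TPM in replicates 1 and 2 in the first quantification, and 12.0% and 30.9% in the second. In the second quantification Jag2 had the lowest coding share, at 71.2% in replicate 1 and 59.9% in replicate 2, with a mean of 65.5%, followed by Hey1 at 83.9% and Notch4 at 84.1%. Notch3 and Dll4 had coding shares of 100% in both hearts in the first quantification. In the second, Dll4 had 90.7% in replicate 1 and 87.4% in replicate 2, and Notch3 had 92.3% and 100%.

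**Figure D2:**
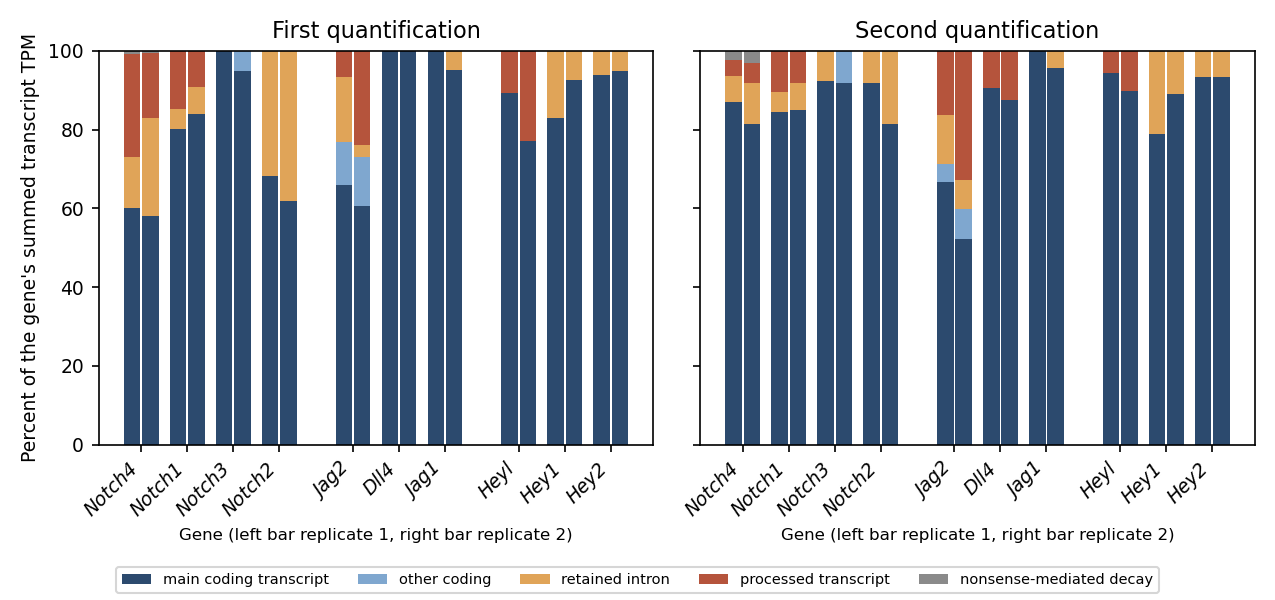
Percent of each member's summed transcript TPM (y axis, stacked to 100%) on the main coding transcript, other coding, retained-intron, processed and nonsense-mediated-decay transcripts, with replicate 1 in the left bar and replicate 2 in the right bar of each gene. In the first quantification (left panel) Notch4 has 59.1% and Notch2 65.1% on coding transcripts, against 84.1% and 86.6% in the second (right panel).

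With the main coding transcript alone, the order at the top of the receptors and ligands turned round. Main-transcript Notch4 had 8.03 TPM in replicate 1 and 7.33 TPM in replicate 2, while main-transcript Notch1 had 9.14 TPM in replicate 1 and 8.27 TPM in replicate 2. Notch4 over Notch1 was then -0.18 ± 0.01 on the log2 scale, against 0.29 ± 0.09 for all transcripts, and it was -0.13 ± 0.09 for all transcripts of the second quantification. Of these 3 measures and the main coding transcript of the second quantification (-0.14 ± 0.02), Notch4 was above Notch1 by 1, the summed transcripts of the first quantification.

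Main-transcript Jag2 had 5.07 TPM in replicate 1 and 4.86 TPM in replicate 2, and main-transcript Dll4 had 5.86 TPM in replicate 1 and 5.96 TPM in replicate 2. Jag2 over Dll4 was then -0.25 ± 0.06, against 0.40 ± 0.03 for all transcripts. The main coding transcripts of the second quantification gave -0.14 ± 0.07, while all its transcripts gave 0.45 ± 0.14. Which ligand was highest therefore depended on whether the shorter Jag2 transcripts were counted, in both quantifications. Among these is a coding model of 742 bases, with 0.83 TPM in replicate 1 and 1.00 TPM in replicate 2. It had 0.388 and 0.868 TPM in the second quantification. With it added to the main coding transcript, Jag2 would be about level with Dll4 in both hearts and both quantifications. The turned order thus rests on leaving out a coding model. Main-transcript Notch3, at 7.35 TPM in replicate 1 and 7.93 TPM in replicate 2, lay above main-transcript Notch2, at 5.33 and 4.32 TPM. Notch3 over Notch2 was then 0.66 ± 0.29, beyond the spread. Main-transcript Heyl had 4.56 TPM in replicate 1 and 5.86 TPM in replicate 2, and main-transcript Hey1 had 3.67 and 2.96 TPM. For each of these genes the hearts thus lay closer together than with all transcripts. Heyl over Hey1 was 0.63 ± 0.46 for the main coding transcripts, now beyond the spread. Dll4 over Jag1 and Hey1 over Hey2 kept their order by all 4 measures.

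**Figure D3:**
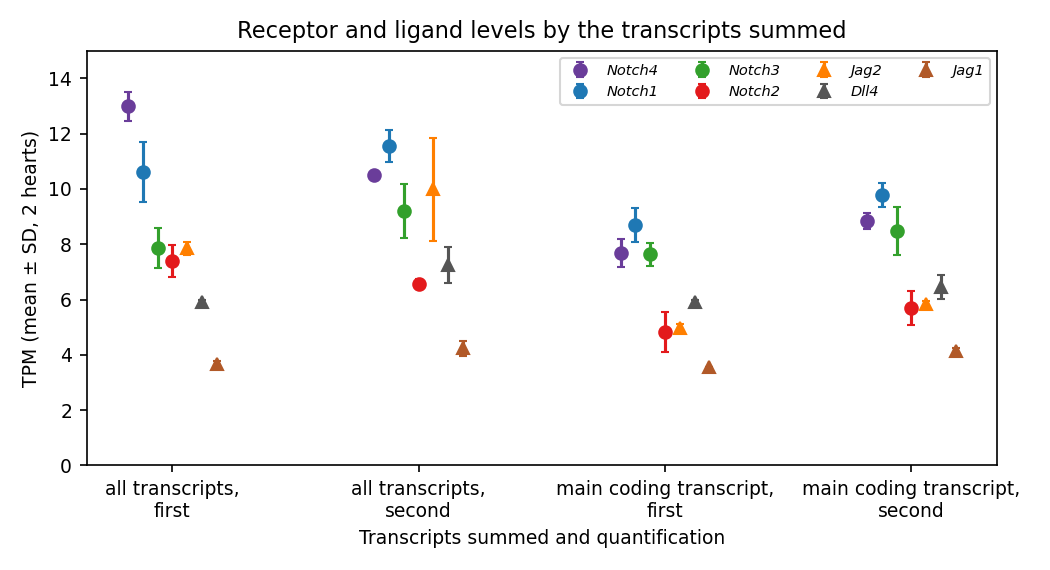
TPM of the 4 receptors (circles) and 3 ligands (triangles) as the mean ± SD of the 2 hearts, for all transcripts or the main coding transcript alone in each of the 2 quantifications. Notch4 is above Notch1 for all transcripts of the first quantification alone. Jag2 is above Dll4 for all transcripts and below it for the main coding transcript, which leaves out a shorter coding model of Jag2.

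Between the hearts, 0 of 10 members differed by 2-fold or more, which 1.22% of the 12910 genes with a mean of 1 CPM (counts scaled by library size) or more did. All 10 members passed that filter. Ratios here are of TMM-scaled estimated counts, replicate 1 over replicate 2, with exact binomial intervals that cover counting error only and no replicate check. The median size of the log2 ratio was 0.12 over the members and 0.12 over all genes.

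Hey1, with 298 counts in replicate 1 and 250 in replicate 2, had a log2 ratio of 0.40 (95% interval 0.15 to 0.65) or 1.32-fold, a difference that 10.2% of all genes reached or passed. Heyl, with 668 counts in replicate 1 and 935 in replicate 2, had a log2 ratio of -0.34 (-0.48 to -0.19), which 13.8% of genes reached or passed. These Hey genes thus differed in opposite directions, and each by less than 2-fold. Hey2, with 165 counts in replicate 1 and 181 in replicate 2, had a ratio of 0.01 (-0.30 to 0.32).

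Among the receptors, Notch2 had a log2 ratio of 0.31 (0.21 to 0.40), Notch1 0.18 (0.10 to 0.25) and Notch4 0.17 (0.07 to 0.27). Notch3 had -0.07 (-0.16 to 0.01). The ligands lay near 0, with Jag2 at 0.08 (-0.06 to 0.21), Dll4 at 0.02 (-0.13 to 0.17) and Jag1 at 0.02 (-0.14 to 0.17). Their scaled counts thus lay on the other side of equality from their TPM, which were slightly higher in replicate 2. Intervals left out 0 for 5 members, of which Heyl alone was lower in replicate 1, and they did so for 33.1% of all genes tested. Differences of the size of those of Notch2, Notch1 and Notch4 were reached or passed by 16.03%, 35.0% and 36.3% of genes. By TMM 8 members were higher in replicate 1, by library totals 5, by spike-in totals 9 and in the second quantification 7. The median log2 ratio of all genes that passed the filter was -0.003 by TMM and -0.001 in the second quantification. It was -0.06 by library totals and 0.13 by spike-in totals, so the count of members moved with the scaling. The share of all genes higher in replicate 1 was not computed. The direction of Notch3 turned to 0.06 with spike-in totals, and Jag1, Dll4 and Hey2 turned to -0.04, -0.04 and -0.05 with library totals. Dll4 also turned to -0.03 in the second quantification.

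**Figure D4:**
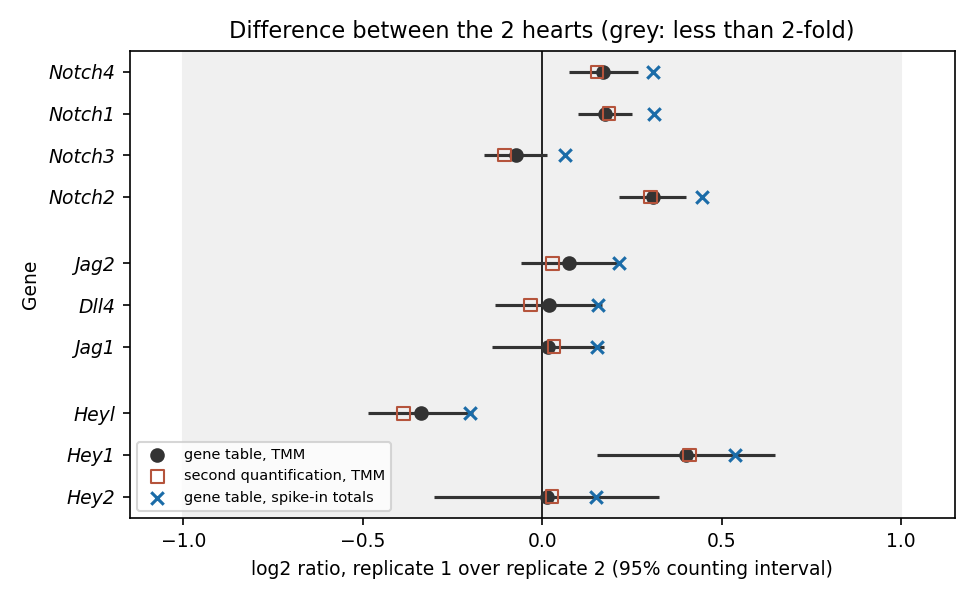
Log2 ratio of replicate 1 over replicate 2 for each member from TMM-scaled counts of the gene table (filled circles, bars are 95% counting intervals), the second quantification (open squares) and spike-in totals (crosses). All 10 members lie inside the grey band of less than 2-fold, with Hey1 at 0.40 and Heyl at -0.34 the farthest from 0.

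Markers of vessel, endocardial and fibroblast cells are given beside these differences. Of the 8 endothelial markers 2 were higher in replicate 1 and 6 in replicate 2, with a summed level of 232.6 TPM in replicate 1 and 250.4 TPM in replicate 2 and a median log2 ratio of -0.11. The most abundant were Egfl7, at 54.93 TPM in replicate 1 and 53.41 TPM in replicate 2, and Pecam1, at 43.03 and 45.46 TPM. The 5 pericyte markers summed to 188.4 TPM in replicate 1 and 205.0 TPM in replicate 2, with 4 of 5 higher in replicate 2. The 5 smooth muscle markers summed to 151.9 TPM in replicate 1 and 177.5 TPM in replicate 2, but 3 of 5 were higher in replicate 1 by scaled counts. The 4 fibroblast markers were all higher in replicate 1, with a median log2 ratio of 0.19. They summed to 239.1 TPM in replicate 1 and 216.8 TPM in replicate 2. The 6 arterial markers summed to 24.91 TPM in replicate 1 and 25.94 TPM in replicate 2, and the 3 endocardial markers to 26.81 and 30.84 TPM. Acta2, of smooth muscle, had 64.42 TPM in replicate 1 and 89.30 TPM in replicate 2, and 98.6 and 143.9 TPM in the second quantification. Smtn had 53.69 TPM in replicate 1 and 62.20 TPM in replicate 2. The other smooth muscle markers went the other way, with Tagln at 23.07 and 16.25 TPM, Myh11 at 7.78 and 6.99 TPM and Cnn1 at 2.98 and 2.73 TPM. Cnn1 turned round in the second quantification, at 3.27 and 3.77 TPM. The part of these cell types, or of the fat and blood transcripts, in the differences of Heyl, Hey1 and the receptors was not tested.

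The other 53 genes of the pathway were taken as 8 lists by role. Of these, 40 reached 1 TPM in both hearts, a level reached by 49.5% of protein-coding genes. Dll3 and Hes3 had a count of 0 in both hearts in the gene table. Of the 43 that passed the filter, 0 differed by 2-fold between the hearts, against 1.22% of all 12910 genes that passed. A count of 0 among 43 is near that share. The log2 ratios of the 43 ran from -0.22 to 0.50.

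Among other ligands and ligand-like genes, 1 of 5 reached 1 TPM. This was Dll1, a Delta-like ligand, with 2.55 TPM in replicate 1 and 2.17 TPM in replicate 2. The non-canonical ligand Dlk1 followed at 0.33 and 0.22 TPM. Jag1, Jag2 and Dll4 were thus each above all 5 of these genes in both hearts.

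Nearly all enzymes that modify and cut the receptors reached 1 TPM in both hearts. All 6 sugar transferases reached 1 TPM, with a median of 4.37 TPM. Pofut1, which adds O-fucose to the receptor, had 4.82 TPM in replicate 1 and 4.85 TPM in replicate 2, and the Fringe enzyme Lfng was lowest at 3.37 and 2.60 TPM. Of the 10 protease genes 9 reached 1 TPM, with a median of 14.1 TPM. Furin, which cuts the receptor on its way to the surface, had 40.86 TPM in replicate 1 and 37.93 TPM in replicate 2, and the gamma-secretase subunit gene Aph1a 37.15 and 39.34 TPM. Aph1c, a related subunit gene, had 0.19 and 0.32 TPM, and 0.464 and 0.754 TPM in the second quantification. Of the 4 ubiquitin ligases of ligands 3 reached 1 TPM, led by Mib1, which ligands need in order to signal, at 14.03 TPM in replicate 1 and 13.96 TPM in replicate 2.

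In the nucleus, 6 of 8 genes of the activating complex reached 1 TPM. The acetyltransferase genes Kat2b, at 27.76 TPM in replicate 1 and 30.63 TPM in replicate 2, and Ep300, at 16.38 and 12.68 TPM, were highest. Rbpj itself, named here for its role and not by the rule of level, had 8.62 TPM in replicate 1 and 8.38 TPM in replicate 2, and 13.0 and 16.1 TPM in the second quantification. Its relative Rbpjl was at 0.01 TPM in replicate 1 and 0 in replicate 2. All 4 corepressors reached 1 TPM. Cir1 was lowest, at 6.64 TPM in replicate 1 and 4.80 TPM in replicate 2, with the largest ratio of the 43 genes at 0.50. Of 9 negative regulators and receptor ligases 8 reached 1 TPM, led by Fbxw7, which marks the cut receptor for breakdown, at 14.38 TPM in replicate 1 and 16.24 TPM in replicate 2. Numb, which holds back receptor signalling, followed at 11.22 and 10.54 TPM.

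Of the Hes genes and Nrarp, listed together as other targets, 3 of 7 reached 1 TPM. Whether each of them is a target of the pathway in the heart was not tested. Hes1, the best known target repressor, had 7.79 TPM in replicate 1 and 8.57 TPM in replicate 2, and Hes6 5.44 and 6.54 TPM. Hes1 thus lay above all 3 Hey genes in mean level, though Heyl, at 7.61 TPM over all its transcripts, came near it in replicate 2.

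**Figure D5:**
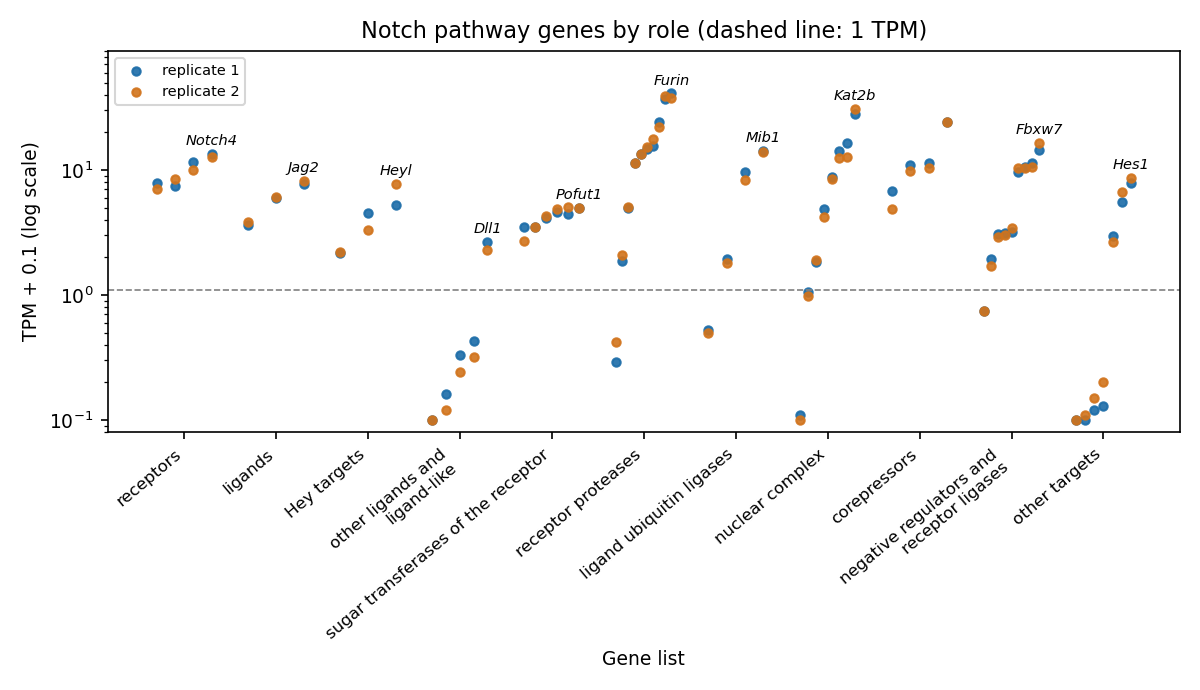
TPM + 0.1 (y axis, log scale) in replicate 1 (blue) and replicate 2 (orange) for the 10 members in their roles and for the other 53 pathway genes in 8 lists, with the highest gene of each group but the corepressors named. All 10 members lie above the dashed line at 1 TPM, as do 40 of the other 53 genes, and only Dll1 of the other ligands does.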

How the data were processed

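For each heart the authors deposited a gene table with estimated counts and TPM, and a first transcript table with the same units and each transcript's percent of its gene. A second transcript table was made from the reads with estimated counts and TPM, per the text files the authors deposited, which name mm10 and GENCODE M21. Which tools made them is not given in the sources used here. Symbols came from the transcript identifiers, and coordinates, exons and transcript sequences from GENCODE M21. Promoters came from RefSeq (GRCm38.p6).

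The gene table also held 26248 transfer RNA entries, with 3.0 and 1.85 counts in replicates 1 and 2. These and the spike-ins (0.505% and 0.577% of counts) were left out of library sizes. At 0 counts, 3 remain possible, which is 0.0784 CPM in replicate 1 and 0.0738 CPM in replicate 2. Reads are not independent molecules, so such limits and all intervals describe counting error alone.

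Counts were rounded and scaled by TMM (edgeR 4.0.16, R 4.3.3) for genes with a mean CPM of at least 1. This step was tested on simulated counts. Alternatives were DESeq2 1.42.0 size factors, library totals, spike-in totals, no filter, the second table, posterior mean TPM, TPM over nuclear protein-coding genes alone, TPM + 1, thresholds of 0.5 and 2 TPM, and each heart left out. The main coding transcript alone (the longest of each gene) was chosen after seeing the data. Other steps ran in Python 3.11.15 with pandas 2.3.3, numpy 2.4.6 and scipy 1.17.1, and plots in matplotlib 3.10.9.

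The members and lists were chosen with earlier results of these data known. Named genes were all members, the 2 highest and the lowest of each list, and genes at 0 in both hearts. All skeletal and smooth muscle markers were named as well. Named transcripts were the leading ones and any other with 20% or more in a heart. A pair of Notch4 models and a coding Jag2 model, all below that share, were added after their values were seen. Not all genes that the rule allows are printed, and 1 is not reported here.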

Additional observations from a re-analysis of the deposited data

How the results depend on the processing

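There were 382 alternative values for 78 results. Of these, 283 kept their direction and call or stayed within the spread. A further 5 reversed, 1 lost and 5 gained a call, and 88 moved by more than the spread. Many of the 283 could not have come out otherwise. With 2 hearts, each lies within the SD of their mean, so leaving 1 out could not move a member's level, share or neighbour ratio. Member ratios without the filter, and shares within a role after rescaling to coding genes, were unchanged by construction. All 10 members had 1 TPM or more in both hearts by each alternative, and in the gene table also 2 TPM or more. Notch4 over Notch1 (log2) was 0.29, but -0.13 in the second table, -0.18 for the main coding transcript and -0.14 for it in the second table. Jag2 over Dll4 was 0.40, but -0.25 and -0.14 for the main coding transcript in the first and second tables, which leaves out a shorter coding model of Jag2. The number of neighbouring pairs beyond their spread was 5, and ran from 5 to 7. Notch1 over Notch3 lost its call (0.21 ± 0.21) for the main coding transcript in the second table. The median coding share of TPM was 85.4%, 87.8% in the second table, and 86.1% to 88.3% with 1 heart left out. Without the filter on low counts, 19.7% of 24638 genes had a ratio of 2-fold or more, against 1.22% with it, and still 0 members did. A count of 0 in 1 heart was set at 3 counts for these ratios. Genes with 1 count against 0 thus enter the unfiltered share in the wrong direction, and it does not measure how many genes differed. With the filter, the share of genes differing by 2-fold that were higher in replicate 1 was 74.5% by TMM, 68.0% by library totals and 85.8% by spike-in totals, which moved the median log2 ratio of all genes to 0.13. Rescaling to protein-coding genes multiplied every TPM by 2.65 in replicate 1 and 2.72 in replicate 2. Hey2, at 165 and 181 counts in replicates 1 and 2, had the widest interval of the members, and its counts leave its log2 ratio between -0.30 and 0.32. No paired analysis was possible because the labels give 1 group. With 2 hearts, no test for an outlying heart could be made.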
